A study of Mus musculus with 2 samples.

Results

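The cells described here are 215 barcodes of mouse femoral cells that held RNA of Chodl together with RNA of Mstn, Col22a1 or Ptx4, and they are called Chodl cells below. They were selected on a rule over unique molecular identifiers (UMIs), each of which stands for 1 captured RNA molecule. A barcode needed at least 200 detected genes, at least 1 UMI of Chodl and at least 1 UMI of any of the 3 partner genes Mstn, Col22a1 and Ptx4. Col2a1 had to be under 0.5% of its UMIs, and the 4 adult haemoglobin genes together under 10%. Of the 10638 deposited barcodes, 8553 held at least 200 genes, 5697 of these had haemoglobin under 10%, and 215 were Chodl cells, 98 of them in the library of untreated mice and 117 in the library of calcitriol-injected mice.

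The untreated group and the calcitriol group were each 6 male C57BL/6J mice of 7 weeks, whose femurs were pooled into 1 library per group for scRNA-seq. Calcitriol (1,25-dihydroxyvitamin D3, the active form of vitamin D) was given intravenously at 2.5 µg/kg in 3 daily injections, and femurs were taken 24 h after the last one. The untreated mice received no injection that the sources used here mention, so that the injection itself and the hormone cannot be told apart. Bones without their ends and marrow were broken up, cells were released with collagenase and EGTA, and cells carrying CD45 were depleted. With 1 library per group, no difference between the groups has a replicate check. Intervals in brackets are exact 95% intervals that cover counting error only, and no p-value was computed.

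Tendons are built by fibroblasts, the tenocytes, whose identity depends on the transcription factor scleraxis (Scx) and which deposit collagen fibres with tenomodulin (Tnmd), fibromodulin (Fmod) and thrombospondins on and around them. At its ends a tendon joins muscle on one side and bone on the other, and the matrix at such junctions has proteins of its own. Type XXII collagen (Col22a1) lies at tissue junctions such as that between muscle and tendon. Myostatin (Mstn), a TGF-beta family ligand known for restraining muscle growth, is also made in tendon. Chondrolectin (Chodl) is a membrane protein with a C-type lectin domain, and Ptx4 belongs to the long pentraxins.

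The 4 rule genes are protein-coding. In the GENCODE annotation of GRCm38, Chodl spans chr16:78930948-78951733 on the plus strand, Mstn chr1:53061640-53068079 on the plus strand, Col22a1 chr15:71795795-72034227 on the minus strand and Ptx4 chr17:25120760-25125292 on the plus strand. The untreated library held 70266983 UMIs in 6076 barcodes and the calcitriol library 60392557 UMIs in 4562 barcodes. The Chodl cells of the untreated library had a median of 9912.5 UMIs (from 1409 to 24814) and 2809 genes, and those of the calcitriol library a median of 9998 UMIs (from 595 to 52185) and 2702 genes. Depth per cell was thus alike in both libraries. The median mitochondrial share was 3.50% and 3.57%, and 5 untreated and 9 calcitriol Chodl cells had 10% or more.

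The libraries differed in red-cell RNA. Haemoglobin genes made up 41.2% of all untreated UMIs and 10.6% of all calcitriol UMIs. Within the Chodl cells they made up 0.159% and 0.0411%, and the part of free red-cell RNA in other values was not tested. As a share of the barcodes with haemoglobin under 10%, Chodl cells were 4.38% (3.57 to 5.31) in the untreated library and 3.38% (2.81 to 4.04) in the calcitriol library. As a share of all barcodes with at least 200 genes they were 2.12% (1.72 to 2.57) and 2.98% (2.47 to 3.57). The order of the libraries turned with the denominator, and no change in abundance can be read from either.

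Of the barcodes with at least 200 genes, 175 untreated and 194 calcitriol barcodes held Chodl, and 108 and 120 of these held a partner gene as well. The limit on haemoglobin then left out 10 untreated and 3 calcitriol barcodes, which had a median of 19789.5 and 20000 UMIs, and the limit on Col2a1 left out 0 in each library. At the edges of the rule, untreated and calcitriol barcodes reached haemoglobin shares of 1.16% and 0.294% inside, and began at 11.7% and 26.8% outside. The highest Col2a1 share inside was 0.232% and 0.0842%. Another 62 untreated and 74 calcitriol barcodes passed all limits with Chodl and had no UMI of a partner gene. Just 1 UMI of Chodl was held by 9 untreated and 20 calcitriol Chodl cells, and the median was 7 and 6 UMIs. The libraries shared 8 barcode sequences, and 0 of these were Chodl cells.

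Most Chodl cells fell together in a clustering from which the 4 rule genes had been left out. In the untreated library 89 of the 98 Chodl cells (90.8%) fell into a single cluster of 256 cells, and in the calcitriol library 104 of 117 (88.9%) fell into a single cluster of 237 cells. These clusters also held 66 and 58 tendon-like barcodes, 26 and 31 non-members with Chodl, which overlap with the former in part, and 82 and 51 barcodes that were none of these. Tendon-like here means non-member barcodes with at least 1 UMI each of keratocan (Kera) and Angptl7, under the same limits on haemoglobin and Col2a1, 75 and 78 barcodes in all. Kera and Angptl7 were both found in 20 untreated (20.4%) and 13 calcitriol (11.1%) Chodl cells. Scores against simulated doublets marked 2 untreated and 1 calcitriol Chodl cell.

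Expression in a group of cells is given in CPM, which scales the gene's summed UMIs to 1000000 UMIs of those cells. The rule genes were high by construction, so the following is a description. Chodl stood at 949 CPM (890 to 1010) in the Chodl cells of the untreated library and at 1324 CPM (1262 to 1388) in those of the calcitriol library. Among tendon-like barcodes it was 23.2 and 24.2 CPM, and among endothelial barcodes (at least 1 UMI each of Cdh5 and Pecam1), which should lack the gene, 0.385 and 7.27 CPM. The calcitriol value of the endothelial barcodes was 23 UMIs in 4 of 240 barcodes, with 39.1% of the UMIs in 1 of them. Members need a UMI of Chodl and tendon-like barcodes are non-members, so the rule fixes the direction of this contrast. Mstn stood at 366 CPM (330 to 405) and 673 CPM (629 to 719), Col22a1 at 492 CPM (449 to 537) and 342 CPM (311 to 376), and Ptx4 at 552 CPM (508 to 600) and 302 CPM (273 to 334). In tendon-like barcodes Mstn was 74.3 and 54.0 CPM, Ptx4 73.1 and 22.4 CPM, and Col22a1 0 and 0.932 CPM.

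**Figure D1:**
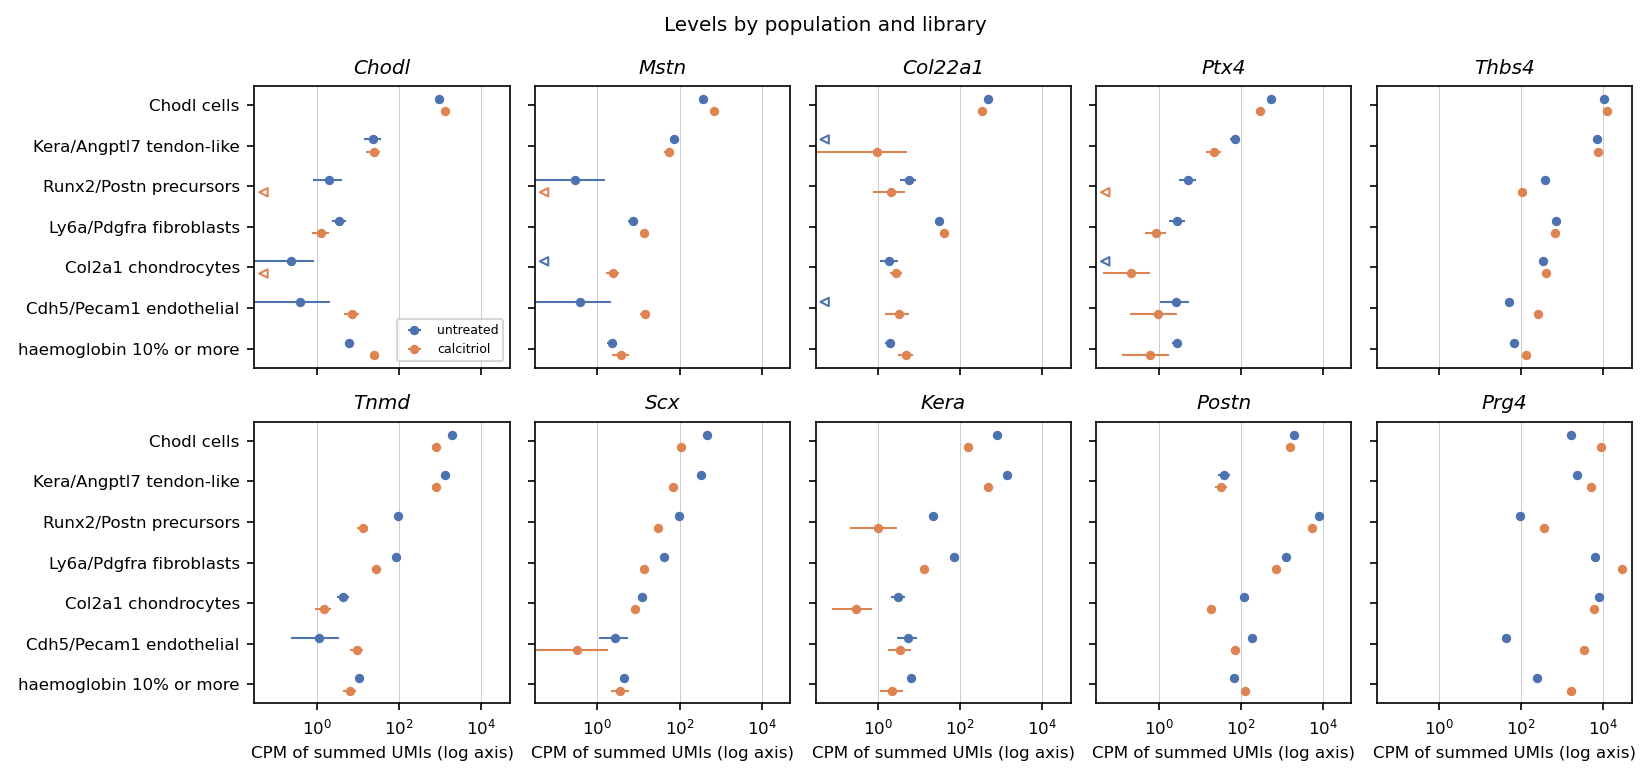
Level of 10 genes in 7 populations of barcodes, in CPM of summed UMIs on a log axis, untreated library in blue and calcitriol library in orange. Points are sums over all cells of a population, bars are exact 95% counting intervals and open triangles at the left mark 0 UMIs; Chodl at 949 and 1324 CPM lies far to the right of its level in every other population shown, while Thbs4, Tnmd and Scx are also high in the tendon-like barcodes.

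The label of tendon junction cells was first read on Tnmd, Thbs4 and Scx, tendon genes that the rule did not use. The counts over whole lists follow. Tnmd and Thbs4 were among the markers that came with the label, which was chosen with earlier results of these data known. Their levels are therefore a description and no independent support. Scx was not among those markers, but its list was also chosen with earlier results known. Tnmd, a membrane glycoprotein of tenocytes, was detected in 95 of 98 untreated and 101 of 117 calcitriol Chodl cells. Thbs4, which encodes a thrombospondin of tendon and muscle matrix, stood at 10566 and 12218 CPM in the untreated and calcitriol libraries, against 760 and 814 CPM in all other barcodes with haemoglobin under 10%. Because detection depends on depth, cells were thinned at random to 2000 UMIs each, which left out 2 untreated and 4 calcitriol Chodl cells. After thinning Tnmd was detected in 89.6% and 64.6% of the Chodl cells in 70.8% and 61.8% of the tendon-like barcodes and in 0% and 0.461% of the endothelial barcodes. Scx, thinned in the same way, was detected in 47.9% and 15.0% of the Chodl cells, in 36.1% and 13.2% of the tendon-like barcodes and in 0% of the endothelial barcodes of either library. Without thinning the shares were 96.9% and 86.3% for Tnmd and 79.6% and 35.0% for Scx.

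The junction part of the label rests on Col22a1 and Mstn, which chose the cells, and where the cells lay in the tissue was not measured. Muscle RNA was close to absent. The 18 genes of muscle fibres and satellite cells summed to 13.7 and 48.6 CPM in untreated and calcitriol Chodl cells. The most abundant was Des (3.92 CPM) in the untreated and Acta1 (9.26 CPM) in the calcitriol library, and Myh4, Myod1 and Myf5 were at 0. The 7 immune genes summed to 3.92 and 6.17 CPM with Ptprc, Tyrobp and Cd52 at 0. The 8 endothelial genes summed to 102 and 51.7 CPM, of which Cdh5 made 34.3 and 17.7 CPM, while Emcn and Tek were at 0. The erythroid genes, most of them Hbb-bs, summed to 1201 and 312 CPM, in the direction of the haemoglobin share of the libraries.

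Of 5236 genes with at least 50 UMIs over the Chodl cells, 285 (5.44%) exceeded 2-fold in Chodl cells over all other barcodes with haemoglobin under 10% in both libraries, and 133 (2.54%) were at least 2-fold lower in both. Among 7 tested tendon transcription factors, 4 were at least 2-fold higher in both libraries, namely Scx, the homeobox factors Mkx and Six2, and Eya2. Among 25 tested genes of tendon matrix 5 were at least 2-fold higher in both, namely Tnmd, Thbs4, Kera, Fmod and Angptl7, and Comp, Lum and Col11a1 were at least 2-fold lower. All 5 tested chondrocyte genes were at least 2-fold lower in both libraries, and so were 5 of 6 tested genes of the enthesis and fibrocartilage, the graded tissue by which tendon attaches to bone. The fibrocartilage genes Sox9, Acan and Chad were among those lower. The 2141 untreated and 3341 calcitriol other barcodes, however, included 347 and 569 chondrocytes. A lower level than in this mix therefore does not show that Chodl cells lack cartilage or fibrocartilage genes. In untreated and calcitriol Chodl cells Chad stood at 895 and 389 CPM, Sox9 at 169 and 114 CPM and Acan at 54.0 and 10.8 CPM. The ratio to other barcodes without the chondrocytes was not tested.

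The 20 genes with the largest ratio to all other barcodes, the rule genes left out, are described here without a test. Shisal2b, which encodes a small membrane protein of the shisa-like family, led with 114 CPM against 0.172 CPM in all other barcodes and 1.03 CPM in tendon-like barcodes, a log2 ratio of 9.37 (8.59 to 10.26). Prph, which encodes the neuronal intermediate filament peripherin, had a log2 ratio of 5.39, Ntng1, a netrin-G family axon guidance gene, 5.18, and C1ql3, a secreted C1q-like protein of synapses, 4.92. Gas2, which encodes a protein that binds actin and microtubules, had one of 5.36. Scube2, a secreted helper of hedgehog signals, followed at 4.19, the membrane-bound Basp1 at 3.97, the adenylyl cyclase Adcy7 at 4.00, the Wnt inhibitor Nkd2 at 3.53 and the thrombin receptor F2r at 3.12. Pla2g7, the phospholipase that breaks down platelet-activating factor, was 60.5 CPM in Chodl cells and 1.55 CPM in tendon-like barcodes. The tendon genes Tnmd (4.52), Thbs4 (3.86), Kera (3.74), Mkx (3.60) and Scx (3.40) were in the same 20, but were high in tendon-like barcodes too. In Chodl cells and tendon-like barcodes Tnmd stood at 1311 and 1053 CPM and Thbs4 at 11491 and 7286 CPM. Mkx stood at 93.7 and 82.2 CPM and Scx at 260 and 186 CPM. Kera was lower in Chodl cells (436 CPM) than in tendon-like barcodes (873 CPM), which were chosen by Kera.

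Mstn and Col22a1 were mostly found in different Chodl cells. Col22a1 without Mstn was found in 46 untreated (46.9%) and 41 calcitriol (35.0%) Chodl cells, and Mstn without Col22a1 in 27 (27.6%) and 46 (39.3%). Both genes were found in 6 and 12 cells, and Ptx4 alone in 19 and 18. The rule itself favours cells with 1 partner gene, so the overlap was read among the cells with Ptx4, whose place in the group did not hang on the other genes. Of these 87 untreated and 83 calcitriol cells, 23 and 35 held Mstn, 50 and 42 held Col22a1, and 5 and 12 held both, where independent detection would give 13.2 and 17.7. The median depth of the untreated and calcitriol cells was 9798 and 10362 UMIs for Col22a1 without Mstn, 8977 and 9650.5 for Mstn without Col22a1, 9315.5 and 12597.5 for both genes, and 12472 and 7496 for Ptx4 alone. The subsets are ranges of a pair of sparse genes and not cell types.

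**Figure D2:**
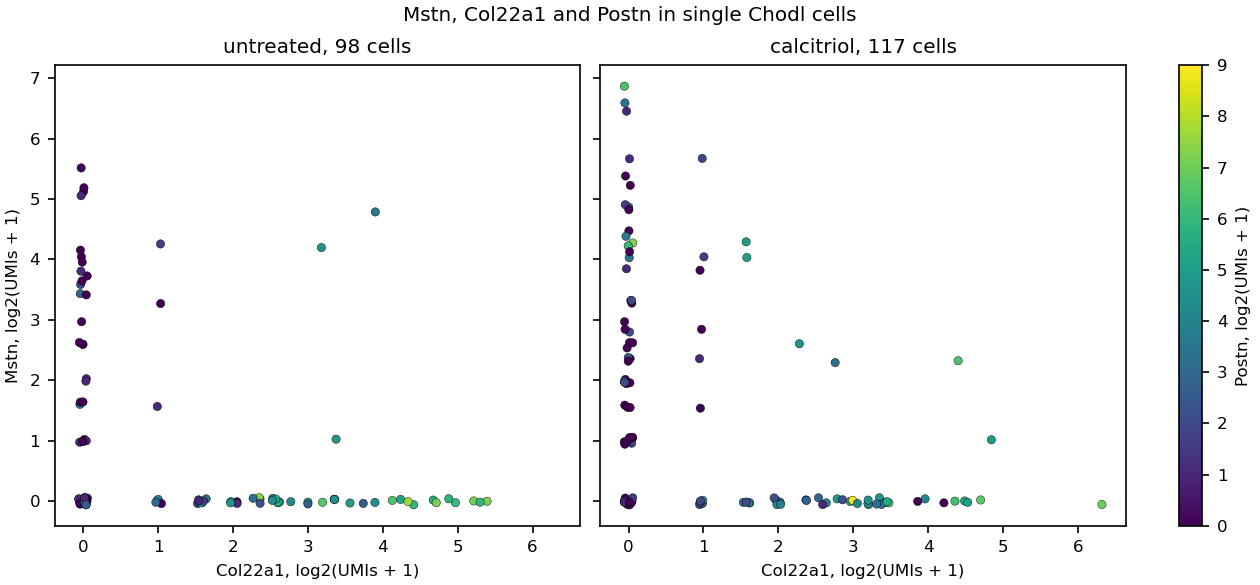
Mstn against Col22a1 in each Chodl cell, as log2 of UMIs plus 1 with a small random offset, for the 98 untreated and the 117 calcitriol cells; colour is Postn on the same scale. Most cells lie along one axis or the other, 6 and 12 cells hold both genes, and untreated cells with high Postn lie along the Col22a1 axis, where in the calcitriol library some cells on the Mstn axis hold Postn too.

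Many other genes differed along the split by Mstn and Col22a1, in the same direction in both libraries. The subsets and the genes named for them were chosen after their values had been seen, and the values are a description. Of 4304 genes, 131 (3.04%) were at least 2-fold higher with Col22a1 in both libraries and 85 (1.97%) were at least 2-fold higher with Mstn in both. Shisal2b stood at 212 CPM with Col22a1 and 0 with Mstn in the untreated library, a log2 ratio of 4.03 against a floor of 3 counts over the subset and of at least 3.71 by its counting interval, and at 238 and 6.44 CPM in the calcitriol library. Postn, which encodes the matrix protein periostin, stood at 3779 and 199 CPM in the untreated and at 2659 and 806 CPM in the calcitriol library. Scx was also higher with Col22a1, 699 against 242 CPM and 173 against 49.4 CPM. The level of Scx was thus lower in both subsets of the calcitriol library, with the order of the subsets kept.

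Among the genes higher with Col22a1 were Kcnk2, a mechanosensitive potassium channel, the ETS factor Etv4, the myo-inositol transporter Slc5a3, the netrin and neogenin receptors Unc5b and Neo1, Insc, Arc, Col26a1, Crispld1 and Adcy7. Etv4 was 133 CPM with Col22a1 and 21.6 CPM with Mstn in the untreated library and 71.1 and 8.59 CPM in the calcitriol library. Slc5a3 was 572 and 56.2 CPM in the untreated library and 1332 and 245 CPM in the calcitriol library. The log2 ratio between the subsets was 3.35 and 2.44 for Slc5a3 and 2.62 and 3.05 for Etv4. Cdh5, known from endothelium, was also higher with Col22a1 (68.7 against 0 CPM, and 40.3 against 2.15 CPM, the last from 1 UMI). Emcn and Tek, however, were at 0 in all Chodl cells.

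Genes higher with Mstn and no Col22a1 included Angptl7, by which the tendon-like barcodes were chosen, and others that were high or low in those barcodes. Angptl7 was 1431 CPM with Mstn against 18.2 CPM with Col22a1 in the untreated library, and 2006 against 352 CPM in the calcitriol library. Clec3b, which encodes tetranectin, differed by a log2 ratio of -6.50 (-8.39 to -5.12) and -5.02 (-10.37 to -2.43), where a negative value means higher with Mstn. With Col22a1 it had just 4 UMIs in the untreated and 1 in the calcitriol library, so the size of these ratios is poorly known. Its level was 916 CPM in tendon-like barcodes. Other genes higher with Mstn in both libraries were Crispld2, Sod3 (extracellular superoxide dismutase), Ccdc3, Abi3bp, Fbln1 (fibulin 1), Cav1 (caveolin 1), Fat4, Sema3c and Fibin. Ccdc3 was 605 against 50.5 CPM and 208 against 46.1 CPM, and 844 CPM in tendon-like barcodes. Emb, which encodes the membrane glycoprotein embigin, was 298 against 109 CPM and 348 against 74.9 CPM, and 73.9 CPM in tendon-like barcodes, and Fat4 was 37.7 CPM there. Thbs4, Tnmd, Cilp and Col12a1 lay within 2-fold between the subsets in both libraries. Kera (log2 ratio -1.25) and Fmod (-1.66) were higher with Mstn in the untreated library, and within 2-fold in the calcitriol library (-0.09 and -0.21).

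**Figure D3:**
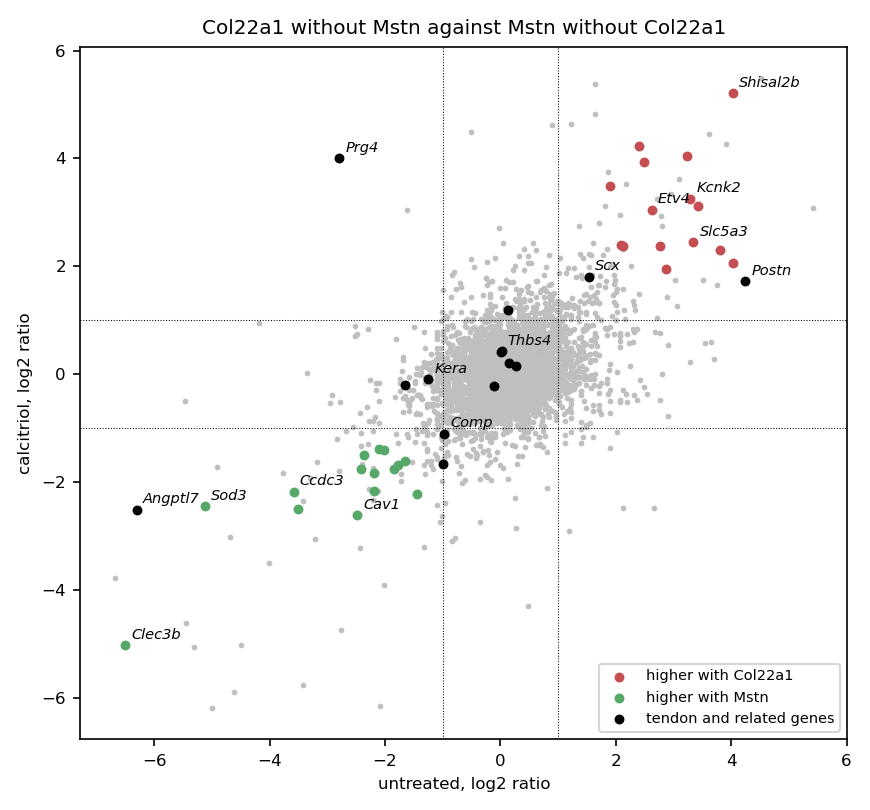
Log2 ratio of CPM between Chodl cells with Col22a1 and no Mstn and those with Mstn and no Col22a1, untreated library on the x axis and calcitriol library on the y axis, 1 grey point per gene. Red and green points are the genes named for either side, black points are tendon and related genes and dotted lines mark 2-fold; Postn (4.25 and 1.72) and Angptl7 (-6.30 and -2.51) lie far apart on opposite sides and Thbs4 (0.01 and 0.42) lies near the centre.

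The comparison of calcitriol-injected with untreated mice asks how these tendon cells differed after the hormone. Of 5236 genes, 179 (3.42%) were at least 2-fold higher and 240 (4.58%) at least 2-fold lower in the Chodl cells of the calcitriol library, and the median log2 ratio of all of them was -0.09. In 36 of the 179 and 13 of the 240 a single cell held over 25% of the gene's UMIs in the library where it was higher. The genes that stood lower after calcitriol included Scx, Tnmd and Kera, 14 of 33 genes of a list for protein folding in the endoplasmic reticulum, 6 of 12 tested genes of a contractile list, and Igf1. Of the 6 contractile genes, Tagln alone stayed past 2-fold in all alternatives to the processing. The genes that stood higher included 8 of 15 tested genes of a list of FOXO targets and nutrient stress, the metallothionein genes Mt1 and Mt2, and Lox. The folding, contractile and FOXO lists were chosen after the ratios had been seen. Their median ratios had the same sign in tendon-like and in all other barcodes, as given below. The values below are ratios between 2 libraries and hold for those libraries.

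Among the 7 tested tendon transcription factors 0 were at least 2-fold higher and 1, Scx, was at least 2-fold lower, and the median log2 ratio was 0.40. Scx stood at 457 CPM (417 to 501) without and 106 CPM (88.7 to 125) with calcitriol, with a median cell of 292 and 0 CPM. That is a log2 ratio of -2.11 (-2.40 to -1.84), or 4.33-fold lower. Mkx differed by -0.25 (-0.65 to 0.14), and the immediate-early factor Egr1 by 0.81 (0.71 to 0.90). Among the 25 tested genes of tendon matrix 2 were at least 2-fold higher and 3 at least 2-fold lower, with a median log2 ratio of -0.24. Tnmd stood at 1984 CPM (1898 to 2072) and 782 CPM (735 to 832), with a median cell of 1877 and 534 CPM and a log2 ratio of -1.34 (-1.45 to -1.23). Over the whole clusters that held most Chodl cells the ratio of Tnmd was -0.47. Kera stood at 793 and 155 CPM, a log2 ratio of -2.35 (-2.58 to -2.13), and Cilp2 at 852 and 369 CPM, a log2 ratio of -1.21.

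The other tendon matrix genes stayed within 2-fold except Lox and Angptl7. Lox, which encodes the lysyl oxidase that cross-links collagen and elastin, stood at 354 and 826 CPM, a log2 ratio of 1.22 (1.05 to 1.40). Angptl7, a secreted angiopoietin-like protein, stood at 593 and 1836 CPM, a log2 ratio of 1.63 (1.50 to 1.76). Within the cells with Col22a1 and no Mstn its ratio was 4.27, and within those with Mstn and no Col22a1 it was 0.49. The 19 untreated and 18 calcitriol cells with Ptx4 alone were at 1134 and 7021 CPM. Thbs4 differed by 0.21 (0.17 to 0.25), Fmod by -0.14, Dcn by -0.15 and Comp by -0.90. The main fibril collagen genes Col1a1 and Col1a2 differed by -0.91 and -0.67, and Col12a1 by -0.41. Of 6 tested genes of the enthesis and fibrocartilage 3 were at least 2-fold lower, and for Acan and Col10a1 a single untreated cell held 52.7% and 99.3% of the UMIs. Chad, which encodes the cartilage matrix protein chondroadherin, stood at 895 and 389 CPM, a log2 ratio of -1.20, and of -0.49 within the cells with Col22a1 and no Mstn.

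In a list of 33 genes for folding and modifying secreted proteins in the endoplasmic reticulum, which was chosen after the ratios had been seen, 0 were at least 2-fold higher and 14 at least 2-fold lower, 31 had a ratio below 0, and the median log2 ratio was -0.83. Over the same 33 genes the median was -0.96 in tendon-like barcodes and -0.59 in all other barcodes with haemoglobin under 10%. Summed over the list, the level was 14754 CPM for untreated and 7166 CPM for calcitriol Chodl cells. Creld2, an endoplasmic reticulum stress-inducible protein, stood at 124 CPM (103 to 147) and 17.7 CPM (11.2 to 26.6), 6.97-fold lower. Manf, a secreted factor retained in the endoplasmic reticulum, stood at 603 and 149 CPM, a log2 ratio of -2.02 (-2.26 to -1.78). Serpinh1, the collagen chaperone HSP47, stood at 1930 and 558 CPM, a log2 ratio of -1.79, Calr (calreticulin) at 1398 and 470 CPM, and Hsp90b1 (GRP94) at 1399 and 507 CPM. Hspa5, the central chaperone BiP, was within 2-fold at 2694 and 1453 CPM, a log2 ratio of -0.89. Ratios nearest to 0 were those of Atf4 (-0.02) and Plod1 (0.04), and Atf6 was at 0.45 (-0.05 to 0.96).

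Many genes of this group are known to carry the endoplasmic reticulum stress element in the promoter, by which the factors ATF6 and NF-Y are known to act, and the letters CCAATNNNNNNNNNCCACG were searched on both strands. The windows ran from 250 bases before to 50 bases after each RefSeq gene start of GRCm38.p6. The motif was found in windows of 37 of 27025 genes (0.137%). Of the 33 list genes 27 had a window, and 7 of these held the motif, namely Hspa5, Hsp90b1, Calr, Canx, Pdia6, Dnajc3 and Creld2. The list was chosen after the ratios had been seen and holds genes known for this element, so nothing is read from that share, and a match is a description of the letters and not a measured site. The log2 ratios of the 7 ran from -2.80 for Creld2 to -0.62 for Dnajc3. Their median was -1.47. The 20 list genes with a window and no match ran from -1.85 for Sdf2l1 to 0.04 for Plod1, with a median of -0.83, so the ranges overlapped. The difference was not tested. For 4 of them the match is shown in capitals with 30 bases on each side, in the direction of the gene, so that CGTGG is at the left where the match lies on the opposite strand. The stretches are chr15:88819490-88819568 on the plus strand for Creld2, chr12:17266461-17266539 on the plus strand for Pdia6, chr10:86705503-86705581 on the minus strand for Hsp90b1, the nearer of its 2 matches, and chr2:34771995-34772073 on the plus strand for Hspa5. Between the match and the start of the gene lay 107, 79, 88 and 46 bases, and the log2 ratios were -2.80, -1.83, -1.47 and -0.89.
Creld2: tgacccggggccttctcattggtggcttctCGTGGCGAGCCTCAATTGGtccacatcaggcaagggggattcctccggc
Pdia6: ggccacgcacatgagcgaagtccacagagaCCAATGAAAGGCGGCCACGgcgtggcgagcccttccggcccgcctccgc
Hsp90b1: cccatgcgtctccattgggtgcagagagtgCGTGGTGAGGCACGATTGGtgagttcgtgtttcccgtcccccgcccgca
Hspa5: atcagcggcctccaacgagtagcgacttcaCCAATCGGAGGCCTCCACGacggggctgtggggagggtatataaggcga

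In a list of contractile cytoskeleton genes, also chosen after the ratios had been seen, 6 of 12 tested genes were at least 2-fold lower and 6 were within 2-fold. Of the 6 that were lower, Tagln alone stayed past 2-fold in all alternatives. After thinning to 2000 UMIs Acta2 was at -0.65, Cnn2 at -0.56, Myl9 at -0.91 and Tpm4 at -0.94. Tpm1 was at -0.92 within the cells with Mstn and no Col22a1. Of the 12, 3 had a ratio above 0, and the median log2 ratio of the 12 was -0.99, against -0.66 in tendon-like and -0.81 in all other barcodes. Tagln, which encodes the actin-binding transgelin, stood at 156 and 24.7 CPM, a log2 ratio of -2.66 (-3.26 to -2.11). Tpm1 and Tpm4, which encode tropomyosins, differed by -1.11 and -1.06, while Cald1 (caldesmon) differed by 0.01 and Actn1 by 0.61.

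The 15 lowest ratios among genes found in 20% or more of the Chodl cells of either library, with no single cell holding over 25% of the UMIs in the library where the gene was higher, were led by Spon2. Spon2, which encodes the secreted matrix protein mindin, stood at 304 and 37.0 CPM, a log2 ratio of -3.04 (-3.51 to -2.60), and in the calcitriol library a single cell held 60.4% of what remained. It was followed by Creld2, Tagln, Tubb2b (-2.60), Tppp3 (-2.43), Kera, Scx, Manf and Igf1. Igf1, the growth factor insulin-like growth factor 1, stood at 693 and 171 CPM, 4.05-fold lower, and was detected in 80.6% and 45.3% of the Chodl cells. Of 7 tested IGF genes 0 were at least 2-fold higher and 2, Igf1 and the binding protein gene Igfbp5, were at least 2-fold lower, and Igfbp5 was at -0.37 within the cells with Col22a1 and no Mstn. Igf1r differed by 0.71 (0.13 to 1.32). Aldh18a1, an enzyme of proline synthesis, was also in the 15, at -1.86, but at -0.42 within the cells with Col22a1 and no Mstn.

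The 15 highest ratios were led by Aldh6a1, an enzyme of valine breakdown, at 4.91 and 40.1 CPM in the untreated and calcitriol libraries, a log2 ratio of 3.03 (1.72 to 4.71). Pik3ip1, an inhibitor of PI3 kinase, followed at 14.7 and 81.8 CPM, a log2 ratio of 2.47. Among the others were Ccbe1 (2.41), the protease inhibitor gene Serpina3n (2.32), the autophagy-linked Calcoco1 (2.32) and Trp53inp1 (2.25), the retinaldehyde dehydrogenase gene Aldh1a1 (2.24), Lifr (2.10), which encodes the receptor for leukaemia inhibitory factor, and Angptl4 (2.08, but 0.64 within the cells with Mstn and no Col22a1). Txnip, which encodes the thioredoxin-interacting protein that restrains glucose uptake, stood at 213 CPM (185 to 243) and 929 CPM (877 to 983), with a median cell of 117 and 710 CPM. It was detected in 61.2% of the untreated and 86.3% of the calcitriol Chodl cells.

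In a list of 19 genes that FOXO factors or nutrient stress are known to raise, chosen after the ratios had been seen, 8 of 15 tested genes were at least 2-fold higher and 0 lower, with a median log2 ratio of 1.16. For the same genes it was 1.62 in tendon-like and 0.80 in all other barcodes. Besides Txnip, Pik3ip1 and Trp53inp1 these were Deptor (1.65), an inhibitor of mTOR, Bnip3 (1.61), Arrdc3 (1.48), Gabarapl1 (1.27) and Ddit4 (1.16). Foxo1 differed by -0.10 and Foxo3 by 0.73. Of 10 tested glucocorticoid-response genes 4 were at least 2-fold higher and 0 lower, namely the metallothionein genes Mt1 (5068 and 12059 CPM, log2 ratio 1.25) and Mt2 (1.17), Fkbp5 (1.32) and Errfi1 (1.31), and all 10 had a ratio above 0. Their median was 0.95, against 1.07 in tendon-like and 0.79 in all other barcodes. Of 16 tested genes of dissociation stress 0 were past 2-fold in either direction, with a median of 0.06, and Fos and Jun differed by 0.23 and 0.08.

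**Figure D4:**
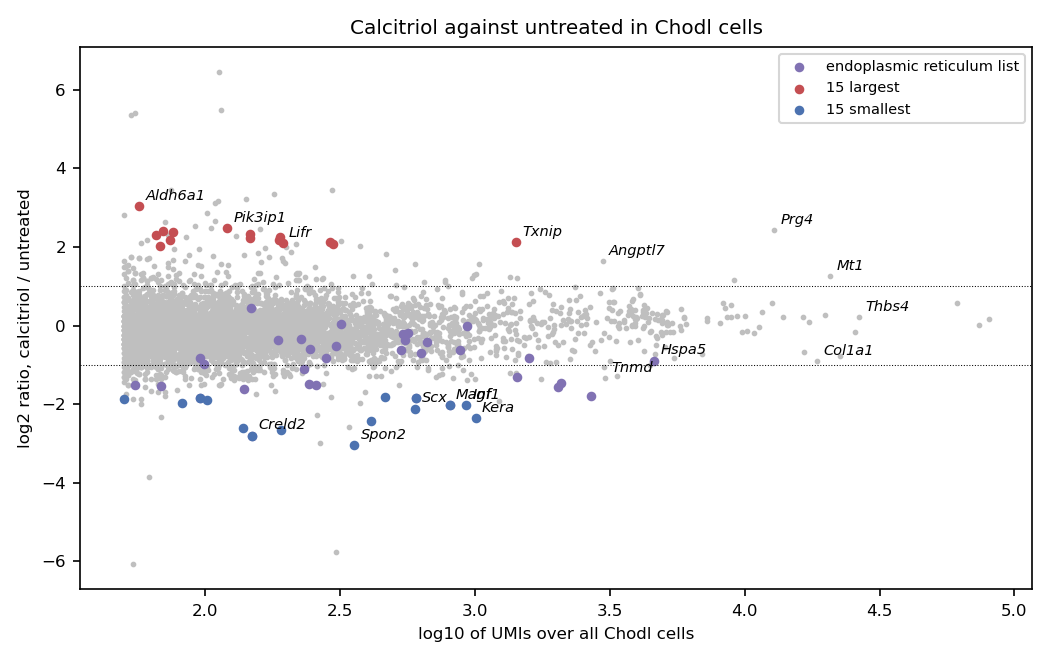
Log2 ratio of CPM in Chodl cells, calcitriol over untreated, against the log10 of the gene's UMIs over the 215 cells, 1 grey point for each of 5236 genes. Red and blue points are the 15 largest and 15 smallest ratios by the naming rule, purple points the endoplasmic reticulum list, and dotted lines mark 2-fold; 31 of the 33 purple points lie below 0.

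The direct machinery of vitamin D was scarcely seen in Chodl cells, and Vdr, Rxra and Cyp24a1 were low in other barcodes too. Vdr, the vitamin D receptor, had 3 UMIs in the untreated and 21 in the calcitriol Chodl cells, the latter in 9.40% of the cells, and its partner Rxra had 13 and 24 UMIs. Cyp24a1, the vitamin D-degrading enzyme and classical target, Cyp27b1, Trpv6, Gc and Fgf23 were at 0 in the Chodl cells of both libraries. In all other untreated and calcitriol barcodes Cyp24a1 stood at 0 and 0.531 CPM and Fgf23 at 0 and 10.6 CPM. At this depth the floor of 3 counts is 2.94 and 2.31 CPM in untreated and calcitriol Chodl cells, which is not an upper limit. Of 13 genes for vitamin D reception, metabolism and response, 2 were tested, Spp1 (0.11) and Enpp1 (-0.35). For Spp1 a single cell held 85.4% and 82.8% of the UMIs. The study named 15 vitamin D genes from these libraries, for osteocytes with Fgf23 against untreated osteocytes, which are other cells than these. They are no independent list. Of the 15, 9 were tested here and 0 were past 2-fold, and Vdr is among those with too few UMIs. The list mixes genes known to be raised by vitamin D with Igfbp7 and Fn1, which are known to be lowered, so no median is given. Igfbp7 differed by -0.55, and Fn1, at 0.57, was the 1 gene of the 9 with a ratio above 0.

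In the pathway of Mstn itself, ligands come first. Mstn helped to choose the cells, so its levels of 366 and 673 CPM are a description from which no ratio is read. Of the 4 other tested ligand genes 1, Inhba (activin A), was at least 2-fold higher, at 55.9 and 124 CPM, with 37.9% of the calcitriol UMIs in a single cell. Its log2 ratio was 1.15, but 0.57 without the scored doublets and 0.01 after thinning to 2000 UMIs. Of the proteases that cut the precursor, Furin, Pcsk5 and Bmp1 were tested and 0 were past 2-fold. Pcsk5 exceeded its level in all other barcodes by more than 2-fold in both libraries, at 180 and 125 CPM against 20.7 CPM in each. Of the binding proteins, Fstl1, Ltbp1 and Ltbp3 were tested and 0 were past 2-fold, and Fst (follistatin) had 2 and 27 UMIs. The receptor genes Acvr2a, Acvr2b and Acvr1b had at most 18 UMIs in a library, whereas Tgfbr1, Tgfbr2 and Tgfbr3 were tested. Tgfbr3, the betaglycan co-receptor, stood at 221 and 441 CPM, a log2 ratio of 1.00 (0.77 to 1.23) just under the limit. Smad2, Smad3, Smad4, Smad7, Ski and Skil were tested and 0 were past 2-fold.

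The other lists are given by their counts, to be read against 3.42% higher and 4.58% lower over all genes tested. Of 11 tested adhesion genes the integrin genes Itga10 (1.08) and Itga11 (-1.18) were past 2-fold in opposite directions. Within the cells with Col22a1 and no Mstn they were at 0.62 and -0.27. Of 6 tested mechanosensing genes, Piezo1, Piezo2, Yap1, Wwtr1, Ccn1 and Ccn2, 0 were. Of 14 tested matrix proteases and inhibitors Adamts5 (2.15) and Mmp13 (2.08) were higher, with 26.9% and 88.5% of the calcitriol UMIs in a single cell. Of 6 tested BMP genes Bmp5 (36.3 and 120 CPM, log2 ratio 1.73) and Smoc2 (2.14, but 0.34 within the cells with Col22a1 and no Mstn) were higher, and of 3 tested Wnt antagonists Sfrp2 (-2.98) was lower, with 58.1% of the untreated UMIs in a single cell. Of 8 tested fibroblast genes Pdgfra (1.74) was higher and Clec3b (-1.82), Cd34 (-1.35) and Pi16 (-1.09) were lower. Of 3 tested genes of smooth muscle and pericytes Acta2 (-1.48, but -0.65 after thinning to 2000 UMIs) was lower. Of 2 tested marrow stroma genes Cxcl12 (2.26) was higher, and of 2 tested endothelial genes 0 were past 2-fold. Both tested erythroid genes, Hbb-bs (-1.92) and Hba-a1 (-1.96), were lower.

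The remaining lists are those of bone, cartilage and joint surface. Of 7 tested osteoblast and osteocyte genes 3 were higher and 0 lower, and of 5 tested genes of the synovial lining and articular surface 3 were higher and 0 lower, Prg4, Clic5 and Htra4. Htra4 (3.13) was found in 6 untreated and 20 calcitriol cells, with 32.0% of the calcitriol UMIs in a single cell. Of 5 tested chondrocyte genes Hapln1 (2.18) was higher, and Acan (-2.32) and Snorc (-1.86) were lower. For Hapln1 a single cell held 67.3% of the calcitriol UMIs, and for Snorc a single cell held 90.0% of the untreated UMIs.

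Some large ratios were those of 1 cell. Prg4, which encodes the lubricant lubricin of joint surfaces and tendon sheaths, stood at 1607 and 8642 CPM, a log2 ratio of 2.43, but a single calcitriol cell held 70.4% of the UMIs, and the median cell was at 504 and 615 CPM. That cell had 7883 UMIs of Prg4 among 33340, 1 UMI of Chodl and 18 of Col22a1. Without the 3 untreated and 5 calcitriol Chodl cells in which Prg4 was at least 1% of the UMIs, the log2 ratio was 0.30. The higher values of Clic5 and of the osteoblast genes Bglap, Bglap2 and Ibsp rested on single cells too, with 75.0%, 93.1%, 95.7% and 94.8% of the calcitriol UMIs. In endothelial barcodes Prg4 was at 42.8 CPM (untreated) and 3365 CPM (calcitriol), with 52.4% of the calcitriol UMIs in 1 barcode, and the part of free RNA in the values of Prg4 was not tested.

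The ratios in other populations come from the same 2 libraries and are set beside those of the Chodl cells as values. The log2 ratio of Scx was -2.11 in Chodl cells, -2.26 in tendon-like barcodes and -1.61 in fibroblasts (at least 1 UMI each of Ly6a and Pdgfra). That of Tnmd was -1.34, -0.71 and -1.59, and that of Kera -2.35, -1.52 and -2.44, in the same order. For Creld2 the values were -2.80, -2.30 and -1.53, and for Manf -2.02, -1.50 and -1.35. For Txnip they were 2.12, 2.19 and 1.25, for Trp53inp1 2.25, 3.30 and 2.44, and for Mt1 1.25, 1.73 and 1.55. The tendon-like barcodes and the fibroblasts shared 20 untreated and 22 calcitriol barcodes, so they are not separate sets of cells. Thbs4 differed by 0.21, 0.15 and -0.09. Whether the sizes differ between populations was not tested, since each rests on 1 library per group.

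**Figure D5:**
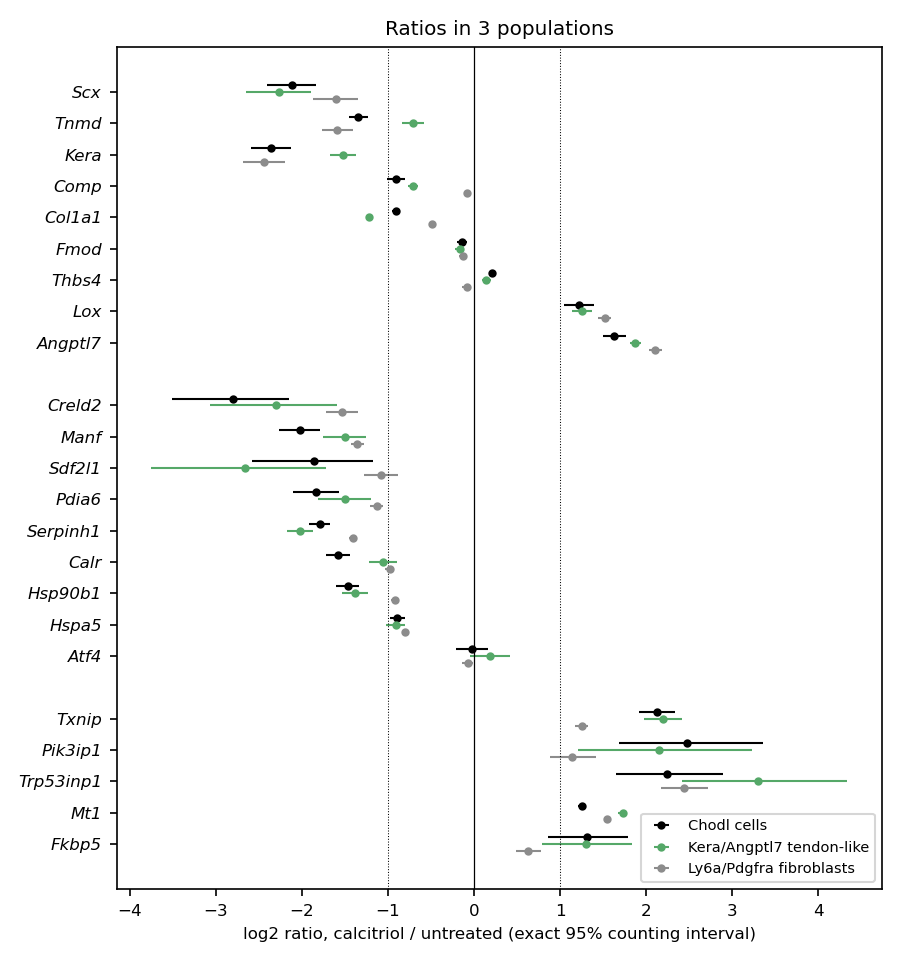
Log2 ratio of CPM, calcitriol over untreated, for named tendon, endoplasmic reticulum and other genes in Chodl cells (black), tendon-like barcodes (green) and fibroblasts (grey), with exact 95% counting intervals; dotted lines mark 2-fold. Scx, Creld2 and Manf lie below -1 and Trp53inp1 and Mt1 above 1 in all 3 populations.

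Within the Chodl cells the ratios of Scx, Tnmd, Creld2, Manf, Txnip and Igf1 had the same direction in both subsets. Those of Tmtc1, Prg4 and other named genes did not, as given further below. With Col22a1 and no Mstn the log2 ratio was -2.02 for Scx, -1.42 for Tnmd, -2.72 for Creld2, -2.23 for Manf and 2.31 for Txnip. With Mstn and no Col22a1 it was -2.29, -1.48, -2.84, -2.24 and 1.22 for the same genes. The mix of the subsets differed between the libraries, with Mstn without Col22a1 in 27.6% of the untreated and 39.3% of the calcitriol Chodl cells. Igf1 differed by -2.66 and -1.99 within the subsets. Angptl7, which was much lower with Col22a1 in the untreated library, differed by 4.27 with Col22a1 and by 0.49 with Mstn.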

How the data were processed

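The authors deposited 1 filtered matrix of UMI counts per library, made with Cell Ranger (version 4.0.0) on mm10, and the counts were used as deposited for 32285 genes. The authors used Seurat (version 3.2.2) for steps not used here. The members and gene lists (30 lists and 3 added later) were chosen with earlier results of these data known. The result of 1 list is not reported here. Levels are CPM of UMIs summed per library. Ratios used genes with at least 50 UMIs over the members and a limit of 2-fold. Intervals were Poisson for sums, conditional binomial for ratios and Clopper-Pearson for shares. A group at 0 was set to a floor of 3 counts. Named were the list genes, the 20 largest ratios to other barcodes, the 15 ratios at each end (found in 20% or more of the members of either library, an interval without 0, no cell above 25% of the UMIs) and the 10 most abundant genes. Mitochondrial, haemoglobin, ribosomal protein and rule genes were left out of the rankings. Each library was clustered on 2000 variable genes, 30 components and 20 neighbours with leidenalg 0.10.2. Doublets were scored and kept. On simulated counts for the 5236 genes of the comparison of calcitriol with untreated, intervals were checked. Python 3.11.15, numpy 2.4.6, scipy 1.17.1, pandas 2.3.3 and scikit-learn 1.9.0 were used.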

Additional observations from a re-analysis of the deposited data

Results flagged for a closer look

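The log2 ratio of calcitriol over untreated had opposite signs in the subsets of Chodl cells for 5 named genes, past 2-fold on both sides. With Col22a1 and no Mstn against Mstn and no Col22a1, Lum differed by -1.28 and 1.11, Prg4 by 5.19 and -1.59, Ly6a by 3.21 and -1.77, Mmp3 by -2.83 and 2.31, and Hspa1b by -1.30 and 1.42. Mmp13 differed by 2.08 in Chodl cells and by -5.27 in tendon-like barcodes. A single cell held 70.4% of the calcitriol UMIs of Prg4 and 88.5% of those of Mmp13. In the untreated library a single cell held 79.4% of the UMIs of Mmp3 and 45.6% of those of Hspa1b. With 1 library per group the differences between subsets and populations were not tested.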

How the results depend on the processing

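Of the 30 genes at the ends of the ranking, 25 were past 2-fold in 1 direction in all alternatives, up to 14 per gene. The other 5 were not within subsets of the cells, settings added after the data had been seen. With Mstn and no Col22a1, Tmtc1 was at -0.0093, Angptl4 at 0.64 and Galnt15 at 0.94, and with Col22a1 and no Mstn, Galnt15 was at 0.93, Smoc2 at 0.34 and Aldh18a1 at -0.42. Of the other 53 listed genes past 2-fold, 20 were past it in all alternatives and 33 were not in 1 or more of them. Of the 33, those not given again below are Tnmd, Angptl7, Chad, Igfbp5, Cilp2, Acta2, Adamts5, Pdgfra, Pi16, Itga10, Itga11, Fkbp5, Errfi1, Derl2, Hyou1, Dnajb11, Deptor, Cnn2, Myl9, Tpm1 and Tpm4. With at least 2 UMIs of Chodl there were 97 calcitriol members. With at least 2 partner genes there were 69 untreated and 65 calcitriol members. The whole clusters gave 256 and 237 cells, and then 393 genes were at least 2-fold higher and 528 lower. The counts were 41 and 87 after thinning to 2000 UMIs, 427 and 506 with at least 20 UMIs per gene, and 95 and 137 with at least 100, of 1148, 8138 and 3183 tested genes. After thinning, 18 of the 41 and 43 of the 87 were also past 2-fold over all UMIs, and the cause of these shifts was not tested. Other log2 ratios past 2-fold over all Chodl cells changed sign as follows, and the cause was not tested. With at least 2 UMIs of Chodl, Bglap was at -1.09, Bglap2 at -2.95, Ibsp at -2.46 and Mmp13 at -0.87. With at least 2 partner genes, Col10a1 was at 1.53, Bglap2 at -2.79, Ibsp at -5.38, Snorc at 1.36, Mmp13 at -0.66 and Sfrp2 at 2.94. In the whole clusters, Col10a1 was at 2.21, Bglap at -0.25, Bglap2 at -1.18, Ibsp at -2.56, Hapln1 at -3.12, Clic5 at -1.40, Htra4 at -2.28, Inhba at -0.54 and the median of the synovial list at -1.51. Within the cells with Mstn and no Col22a1, Snorc was at 1.45 and Prg4 at -1.59. Of ratios within 2-fold over all Chodl cells, 193 alternative values of 89 genes also changed sign, 61 of them within the subsets, Lum, Ly6a, Mmp3 and Hspa1b included. Of 3814 alternative values over all results, 3181 stayed within the counting interval or the limit for counts, and 611 moved past it without such a change of a ratio past 2-fold. Low counts limit genes such as Vdr, and intervals do not cover differences between mice.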
